A study of Sus scrofa domesticus with 2 samples.

Results

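The 7 genes PECAM1, CDH5, ESAM, EMCN, ECSCR, ROBO4 and EGFL7, which encode proteins of the endothelial junction and the endothelial surface, were followed in cultured pig endothelial cells (ECs), out of 22804 genes counted. They were taken as a list of names, put together with earlier results of these data known. Of the 7, 6 were named in the deposited counts, and ECSCR was given there only by its Ensembl identifier, ENSSSCG00000014351, whose symbol came from a table of gene names. The counts were from scRNA-seq of domestic pig (Sus scrofa domesticus) cells, of ECs cultured from aorta in 1 library and from lung in the other. Collagenase had been used to free the cells from the aorta near the lung and from a perfused leaf of lung, and they were then kept in DMEM with fetal calf serum. The labels give no further treatment and no breed, age, number of animals or passage. With 1 library per tissue there is no replicate and no test. Tissue, animal, culture and library cannot be told apart, and every interval below covers counting error only.

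PECAM1 (CD31) and ESAM are immunoglobulin-type adhesion molecules that bind their like across the contact between neighbouring ECs. CDH5 is VE-cadherin, the cadherin of the endothelial adherens junction, which is tied to actin through catenins. EMCN (endomucin) is a mucin of the EC surface known from capillaries and veins, and ECSCR is a small membrane protein that takes part in EC migration. ROBO4 is the endothelial member of the Roundabout receptors and is known for stabilizing vessels. EGFL7 is secreted by ECs into the matrix around them. These genes are in common use as markers by which ECs are told from the fibroblasts and mural cells of the vessel wall.

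Endothelial cells were defined without use of these genes. In the lung library they were the cells in which over 200 and under 5000 genes were detected, with under 30% of UMIs from 12 mitochondrial genes and 2 or fewer UMIs of COL1A1 and COL1A2 together, the genes of type I collagen. In the aorta library they were the cells with 5000 or more detected genes under the same mitochondrial limit. This gave 5304 of 5946 lung cells, with a median of 9368 UMIs and 2882.5 genes, and 709 of 1185 aorta cells, with a median of 58476 UMIs and 6772 genes. The methods of the study set fewer than 5000 genes as a limit. Each of the 709 aorta cells lies beyond it, and 246 aorta cells lay within it under the same mitochondrial limit. The study reports keeping more aorta cells than that, so its written limit does not account for the cells it kept. The libraries held 57213236 and 46080859 UMIs, and 5 cell barcodes occurred in both, of which 3 were endothelial by these limits in both.

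The aorta definition does not look at collagen, and the label did not hold for all of its cells. Of the 709, 577 had under 500 CPM (counts per 1e+06 UMIs) of COL1A1 and COL1A2, 128 had 1000 CPM or more and are called collagen-rich here, and 4 lay between. In the 128 the 6 fibroblast markers summed to 10541 CPM and the 7 mural markers to 3770 CPM, while TIE1, SOX17 and SOX18, all markers of ECs, lay at 0.801, 0 and 0.687 CPM. ERG, an ETS factor of ECs, was at 46.9 CPM there, so it was lower but not absent. In the 577 the same lists summed to 187 and 247 CPM, and in the 5304 lung cells to 27.8 and 966 CPM, the last of these almost wholly TAGLN at 957 CPM. In the lung, 343 cells within the limits were collagen-rich. Because of this, aorta values are given for the 709 cells and for the 577 side by side. Among EC markers outside the 7, TIE1, ERG and SOX18 were at 72.7, 129 and 83.4 CPM in the 709 aorta cells and at 89.3, 127 and 91.7 CPM in the lung cells. KDR and VWF were nearly absent from both, at 0.300 and 0.184 CPM in the aorta and 1.76 and 0.405 CPM in the lung. Immune, epithelial and lymphatic markers summed to at most 14.1, 0.753 and 0.502 CPM in these groups. Platelet markers, 2 measured of 3, were higher, at 64.0 CPM in the 709, 67.9 CPM in the 577 and 67.3 CPM in the lung cells. They summed to 48.4 and 55.1 CPM in the collagen-rich cells of aorta and lung.

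The genes do not form a cluster in the genome. In RefSeq on Sscrofa11.1, the build the counts were made on, PECAM1 lies at chr12:14667643-14723296 on the plus strand, CDH5 at chr6:27108560-27142145 on the plus strand, EMCN at chr8:120174091-120227971 on the plus strand and ECSCR at chr2:141343818-141352618 on the minus strand. ESAM at chr9:51983019-51992415 and ROBO4 at chr9:52083757-52097784, both on the minus strand, are 91341 bases apart, with MSANTD2 and ROBO3 between them. EGFL7 is on an unplaced scaffold. The RefSeq record of CDH5 is marked as partial. Because the 7 were all high in endothelial and low in collagen-rich cells, the 250 bases before the RefSeq start of 6 of them were searched on both strands for GGAAG, a core that ETS factors such as ERG bind. It was found before PECAM1 (1 match), ECSCR (2), ROBO4 (2) and EGFL7 (1) and not before ESAM or EMCN, and it was found before 61.0% of 20664 genes. ACAAT, bound by SOX factors, was found before none of the 6, against 21.6% of the 20664. CACCC, bound by KLF factors, was found before PECAM1 alone (1 match), against 52.9%. AGATAA, bound by GATA factors, was found before none of the 6, against 8.64%. A match describes letters in this window only, and GGAAG before 4 of 6 genes is near its share before all genes. The 3 windows with the matches nearest to the start are printed 5′ to 3′ with GGAAG on either strand in capitals, for PECAM1 (chr12:14667393-14667642, plus strand), ECSCR (chr2:141352619-141352868, minus strand) and ROBO4 (chr9:52097785-52098034, minus strand).
PECAM1: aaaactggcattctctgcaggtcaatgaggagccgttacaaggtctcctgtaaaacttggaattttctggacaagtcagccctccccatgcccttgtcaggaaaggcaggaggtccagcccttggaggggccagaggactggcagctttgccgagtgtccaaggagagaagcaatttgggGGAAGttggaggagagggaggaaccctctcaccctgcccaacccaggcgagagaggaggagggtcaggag
ECSCR: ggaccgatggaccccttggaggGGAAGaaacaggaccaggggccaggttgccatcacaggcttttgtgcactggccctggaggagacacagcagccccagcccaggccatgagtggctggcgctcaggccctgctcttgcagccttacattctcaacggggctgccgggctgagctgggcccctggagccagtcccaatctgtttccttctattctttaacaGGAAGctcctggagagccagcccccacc
ROBO4: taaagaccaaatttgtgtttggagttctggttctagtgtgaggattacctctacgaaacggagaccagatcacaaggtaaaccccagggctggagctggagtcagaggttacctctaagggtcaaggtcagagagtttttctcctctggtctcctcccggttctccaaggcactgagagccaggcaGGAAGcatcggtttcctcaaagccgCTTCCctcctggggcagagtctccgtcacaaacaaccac
The last base of each window is next to the start. GGAAG came as close as 28 bases before the start in ECSCR, 39 in ROBO4 and 70 in PECAM1.

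The first comparison asked at what level each gene stood in each culture. A UMI marks 1 captured molecule at its 3′ end, so the levels were not divided by gene length, and the order between genes also depends on how well each 3′ end is annotated. PECAM1 was the highest of the 7 in both libraries, at 1592 CPM in the lung (95% interval 1581 to 1603), 1039 CPM in the 709 aorta cells (1029 to 1048) and 1294 CPM in the 577 (1282 to 1306). ECSCR came next, at 623 CPM in the lung (616 to 629), 571 CPM in the 709 aorta cells (564 to 578) and 711 CPM in the 577 (702 to 720). EGFL7 followed at 326 CPM in the lung (321 to 331), 258 CPM in the 709 (253 to 263) and 320 CPM in the 577 (314 to 326). These were the only members above 200 CPM, and PECAM1 alone made up more than the other 6 together in the lung.

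CDH5 stood at 156 CPM in the lung (153 to 160), 155 CPM in the 709 aorta cells (152 to 159) and 193 CPM in the 577 (188 to 197). ESAM stood at 129 CPM in the lung (126 to 132), 111 CPM in the 709 (108 to 114) and 138 CPM in the 577 (134 to 142). ROBO4 was at 78.8 CPM in the lung (76.4 to 81.2), 45.9 CPM in the 709 (43.9 to 48.0) and 57.3 CPM in the 577 (54.8 to 59.9). EMCN was the lowest, at 67.6 CPM in the lung (65.4 to 69.9), 38.1 CPM in the 709 (36.3 to 39.98) and 47.7 CPM in the 577 (45.4 to 50.1). The order PECAM1, ECSCR, EGFL7, CDH5, ESAM, ROBO4, EMCN was the same in the lung cells, the 709 and the 577 aorta cells, and no 2 neighbours in it had overlapping intervals.

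**Figure D1:**
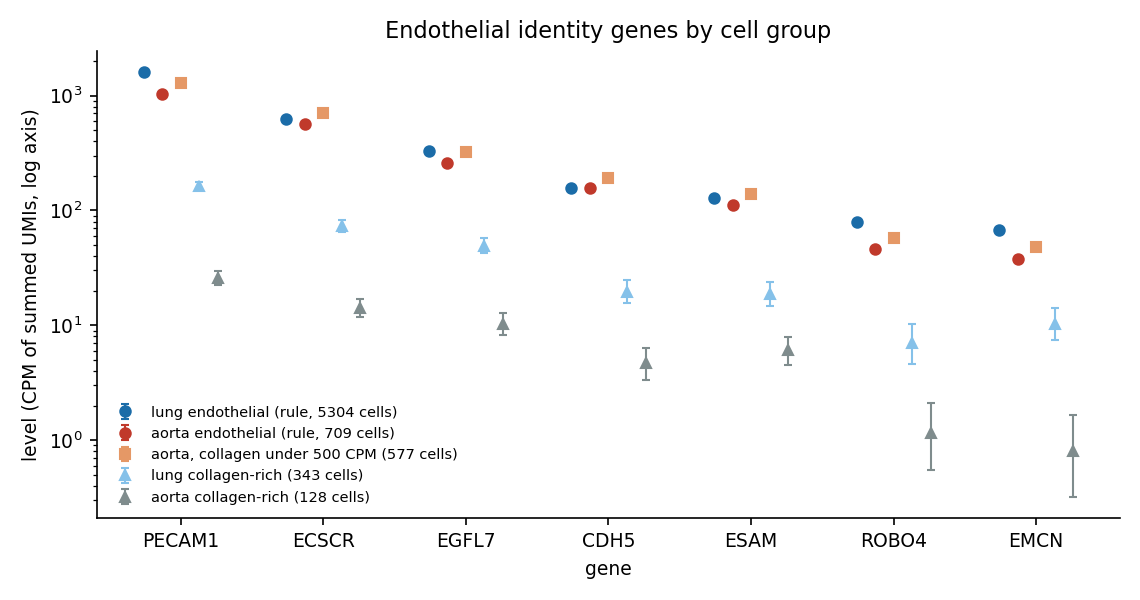
Level of each gene (CPM of summed UMIs, log axis, 95% Poisson intervals of counting error only) in endothelial cells of the lung and aorta libraries and in collagen-rich cells of both. The 7 genes keep 1 order in the endothelial groups and lie lower in the collagen-rich cells, lowest in those of the aorta.

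Between the tissues, all 7 genes differed by less than 2-fold. In the 709 aorta cells against the lung cells, the ratio of levels was 0.995 for CDH5 (0.963 to 1.03), 0.917 for ECSCR (0.901 to 0.932), 0.864 for ESAM (0.832 to 0.897), 0.792 for EGFL7 (0.773 to 0.811), 0.653 for PECAM1 (0.645 to 0.660), 0.583 for ROBO4 (0.552 to 0.615) and 0.563 for EMCN (0.531 to 0.597). Thus 0 of 7 were past 2-fold, against 4.62% of the 5956 genes that reached 20 CPM in either group. The median ratio was 0.792 over the 7 and 1.05 over the 5956. In the 577 cells the ratios were 1.24 for CDH5 (1.20 to 1.28), 1.14 for ECSCR (1.12 to 1.16), 1.07 for ESAM (1.03 to 1.11), 0.983 for EGFL7 (0.960 to 1.01), 0.813 for PECAM1 (0.804 to 0.822), 0.727 for ROBO4 (0.689 to 0.767) and 0.705 for EMCN (0.665 to 0.748). Again 0 of 7 were past 2-fold, against 4.3% of 5907 genes, and the medians were 0.983 and 1.04.

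PECAM1, ROBO4 and EMCN were thus lower in the aorta library by either definition. ECSCR and ESAM were lower with the collagen-rich cells counted in and higher without them. How far libraries of 1 tissue differ from each other is not known from these data. In the lung, 26 cells had 5000 or more genes, which are nearest in depth to the aorta cells, and 18 of them had under 500 CPM of collagen, a split added after the values were seen. In these 18, at a median of 26474 UMIs, PECAM1 was at 1439 CPM (1338 to 1545), CDH5 at 139 CPM (109 to 175), ESAM at 120 CPM (92.3 to 154), EMCN at 55.3 CPM (37.0 to 79.4), ECSCR at 572 CPM (509 to 640), ROBO4 at 85.8 CPM (62.6 to 115) and EGFL7 at 362 CPM (312 to 417). The interval of PECAM1 lay below that of the 5304 cells, and for the other 6 genes the intervals of the 18 and the 5304 cells overlapped. Against the 577 aorta cells, the intervals of PECAM1 and ROBO4 in the 18 lay higher. That of EMCN overlapped the aorta interval (45.4 to 50.1), so its difference is not shown at this depth. In all 26, whose fibroblast markers summed to 1874 CPM against 26.7 CPM in the 18, PECAM1 was at 1165 CPM (1093 to 1241). The part of depth in the difference between tissues was not tested.

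The second comparison asked whether the 7 genes separate endothelial from collagen-rich cells of the same culture. All 7 did, in both libraries. In the lung, the endothelial cells were above the 343 collagen-rich cells by 11.3-fold for ROBO4 (7.74 to 17.1), 9.74-fold for PECAM1 (9.01 to 10.5), 8.44-fold for ECSCR (7.51 to 9.52), 7.94-fold for CDH5 (6.34 to 10.1), 6.82-fold for ESAM (5.41 to 8.71), 6.60-fold for EGFL7 (5.72 to 7.65) and 6.54-fold for EMCN (4.79 to 9.17). This is 7 of 7 past 2-fold, against 9.69% of 6057 genes in that direction, and 0 of 7 past 2-fold lower, against 6.64%. The median ratio over all 6057 was 1.01. In the aorta, the 577 cells were above the 128 collagen-rich cells by 59.5-fold for EMCN (28.8 to 148), 50.5-fold for ECSCR (42.3 to 60.8), 50.02-fold for ROBO4 (27.1 to 104), 50.01-fold for PECAM1 (43.9 to 57.2), 41.1-fold for CDH5 (30.2 to 57.3), 31.1-fold for EGFL7 (25.3 to 38.7) and 22.7-fold for ESAM (17.3 to 30.4). This is again 7 of 7, against 12.6% of 6292 genes, and 0 of 7 lower, against 7.66%, with a median ratio of 0.982 over the 6292.

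What was left in the collagen-rich cells differed between the libraries. PECAM1 was at 163 CPM in those of the lung and 25.9 CPM in those of the aorta, and EMCN at 10.3 and 0.801 CPM, the latter from 7 UMIs. In the lung, 19 of 316 collagen-rich cells deep enough to be thinned to 5000 UMIs (6.01%) held 4 or more of the 7 genes. These 19 had a median of 17878 UMIs against 10779 in the others and carried 49.4% of the 1314 UMIs of the 7 genes. Without them the lung ratios lay between 11.13 and 18.5, an alternative added after the values were seen. None of the 128 aorta cells held 4 or more once thinned to 5000 UMIs, from a median of 64512.5. At full depth, 1 cell held 58 of the 123 UMIs of ECSCR and 1 held 53 of the 226 of PECAM1. The most in 1 cell was 25 of 90 for EGFL7, 13 of 41 for CDH5 and 12 of 53 for ESAM. It was 6 of 10 for ROBO4 and 3 of 7 for EMCN. The aorta ratios thus rest in part on few cells, and whether these were the same cells was not tested. Scrublet, a caller of doublets, was run on the cells with over 200 genes and under 30% mitochondrial UMIs, and marked 9 of 955 in the aorta library (0.942%), 2 of them collagen-rich, and 2 of 5709 in the lung library (0.0350%). A share as low as that of the lung, under 0.5%, says that the caller did not work on it, and no cell was removed. Whether the 19 are doublets was not tested.

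Across the collagen limit of the lung, levels changed little up to 2 UMIs of collagen, with a small decline for 2 of the genes. PECAM1 was at 1597, 1570 and 1615 CPM in the 4133, 1015 and 156 cells with 0, 1 and 2 collagen UMIs. ECSCR went from 630 CPM (622 to 638) at 0 UMIs to 586 CPM (551 to 622) at 2, and EGFL7 from 330 CPM (324 to 336) to 286 CPM (262 to 312). Just outside the limit, the 39 cells with 3 to 10 UMIs had PECAM1 at 1371 CPM (1262 to 1486), CDH5 at 154 CPM (119 to 195), ROBO4 at 81.5 CPM (56.7 to 113), ECSCR at 535 CPM (468 to 609) and EGFL7 at 258 CPM (213 to 311), nearer to the cells inside than to those with more collagen. In the 27 cells with 11 to 50 collagen UMIs, PECAM1 was at 260 CPM (187 to 351) and CDH5 at 43.3 CPM (17.4 to 89.2). EMCN was at 111 CPM there (65.9 to 176), from 18 UMIs in 4 cells, of which 1 cell held 10. Without that cell it was at 56.9 CPM (24.6 to 112). In the 313 cells with more than 50 collagen UMIs, PECAM1 was at 161 CPM, CDH5 at 18.6 CPM and EMCN at 8.61 CPM.

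**Figure D2:**
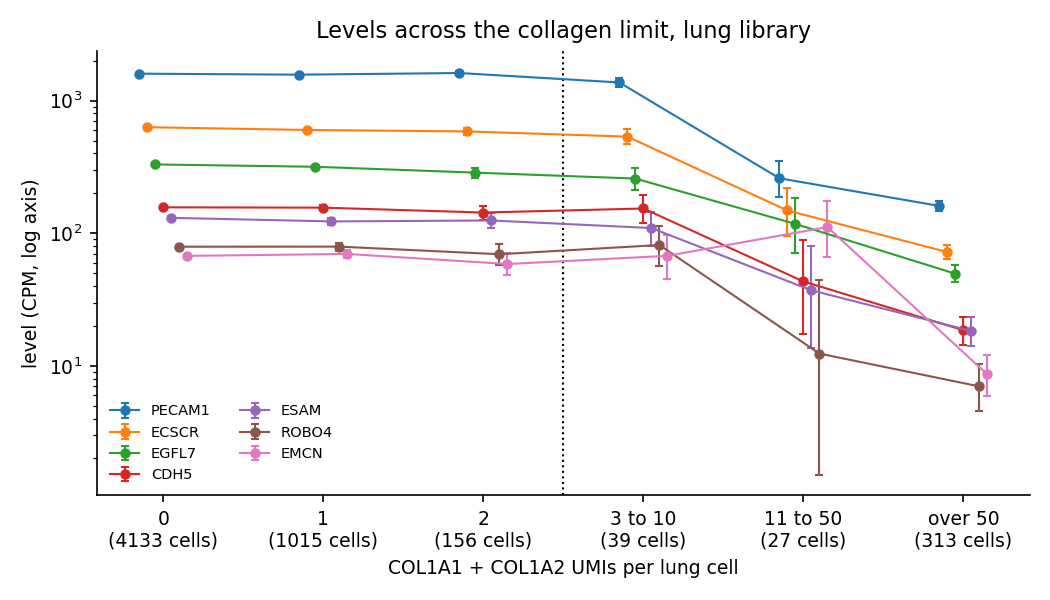
Level of each gene (CPM, log axis, 95% Poisson intervals of counting error only) in lung cells grouped by their UMIs of COL1A1 and COL1A2, with the limit as a dotted line. Levels differ little from 0 to 2 UMIs, with a small decline of ECSCR and EGFL7, and are lower beyond 50, while the 111 CPM of EMCN in the 27 cells between rests largely on 1 cell.

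Around the aorta limit on detected genes, where no collagen limit was set and fibroblast markers summed to 1827 CPM above it and 1696 CPM below it, 25 cells with 5000 or more but under 5500 genes had PECAM1 at 1348 CPM (1267 to 1432), CDH5 at 176 CPM (147 to 208) and ROBO4 at 43.9 CPM (30.4 to 61.4). The 14 cells with 4500 or more but under 5000 genes had PECAM1 at 1033 CPM (930 to 1144), CDH5 at 210 CPM (165 to 263) and ROBO4 at 16.8 CPM (6.16 to 36.5). EMCN was at 14.2 CPM (7.10 to 25.4) in the 25 cells and 44.8 CPM (25.6 to 72.7) in the 14, from 11 and 16 UMIs. Across this limit only PECAM1 and EMCN had intervals that did not overlap, in opposite directions. Of the 246 shallower aorta cells within the limits of the methods, 203 had 2 or fewer collagen UMIs, and these fell apart by their mitochondrial share, a split chosen after it was seen. The 101 cells with 1% or more of UMIs from mitochondrial genes, at a median of 7864 UMIs, had PECAM1 at 1172 CPM (1104 to 1243), CDH5 at 241 CPM (211 to 274) and EGFL7 at 320 CPM (285 to 358). The 102 cells under 1%, at a median of 3156 UMIs and a mitochondrial share of 0.0928%, had PECAM1 at 103 CPM (73.4 to 141), CDH5 at 18.5 CPM (7.45 to 38.2), ECSCR at 214 CPM (170 to 267) and ROBO4 at 5.29 CPM (0.641 to 19.1). The 7 mural markers summed to 3216 CPM in these 102 cells, 45 of which held ACTA2, and to 440 CPM in the 101, 11 of which did. Their part in the lower levels was not tested.

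PECAM1 is also made by leukocytes and platelets, so cells with immune markers were looked at. Cells were not split by platelet markers. In the lung, 18 cells within the limits held 3 or more of the 7 immune markers, with PTPRC in 17 of them and TYROBP in all 18. PECAM1 was in 7 of the 18, at 623 CPM (497 to 771), and ECSCR and EGFL7 in 6 each, at 215 CPM (144 to 309) and 119 CPM (67.8 to 193). EMCN was at 44.5 CPM (16.3 to 96.8), ROBO4 at 37.1 CPM, CDH5 at 37.1 CPM (12.04 to 86.5) and ESAM at 14.8 CPM (1.80 to 53.6), each from 6 UMIs or fewer. PECAM1 was thus not alone in being found there. They are 0.303% of the lung library.

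Detection in endothelial cells mostly rose with level and depth. In collagen-rich cells EGFL7 was found in more cells than ECSCR at a lower level, 10.3 against 14.1 CPM in the aorta. For the lung these levels were 49.4 against 73.7 CPM. In the 577 aorta cells, PECAM1, CDH5 and ECSCR had a UMI in each cell, EGFL7 in 576, ESAM in 571 and ROBO4 in 528 (91.5%, Clopper-Pearson 88.9 to 93.7%). EMCN had a UMI in 383 (66.4%, 62.4 to 70.2%). In the 5304 lung cells, at a median of 9368 against 57099 UMIs, PECAM1 was found in 99.1% of cells, ECSCR in 97.2%, EGFL7 in 89.8%, CDH5 in 73.4%, ESAM in 66.5%, ROBO4 in 49.6% and EMCN in 40.7%. The 128 collagen-rich aorta cells had a median of 64512.5 UMIs. Of these cells, PECAM1 had a UMI in 53.1%, EGFL7 in 37.5%, ECSCR in 19.5%, ESAM in 16.4%, CDH5 in 14.8%, and ROBO4 and EMCN in 3.91% each. In the 343 collagen-rich lung cells, at a median of 10676 UMIs, PECAM1 had a UMI in 35.9%, EGFL7 in 25.9%, ECSCR in 24.2%, CDH5 in 11.7%, ESAM in 11.4%, EMCN in 6.71% and ROBO4 in 5.83%. All shares in endothelial cells were above those of the collagen-rich cells of the same library.

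At equal depth, each cell was thinned at random to 5000 UMIs, which kept all 709 aorta cells and left out 399 lung cells. The shares in the 577 aorta cells and in 4905 lung cells were then 99.3% and 99.7% for PECAM1, 94.6% and 95.01% for ECSCR, 76.9% and 77.0% for EGFL7, 64.1% and 53.1% for CDH5, 43.2% and 46.8% for ESAM, 25.3% and 30.6% for ROBO4, and 17.9% and 25.7% for EMCN. For PECAM1, ECSCR, EGFL7 and ESAM the lung share lay within the interval of the aorta share, and the largest gap was that of CDH5. A thinned cell held a median of 4 of the 7 genes in the lung, in the 709 and in the 577 aorta cells. None of the 577 and 3 of 4905 lung cells held 0 of the 7, and 4 and 85 held all 7. Among the 709, 107 cells held 0, and all 107 were collagen-rich.

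**Figure D3:**
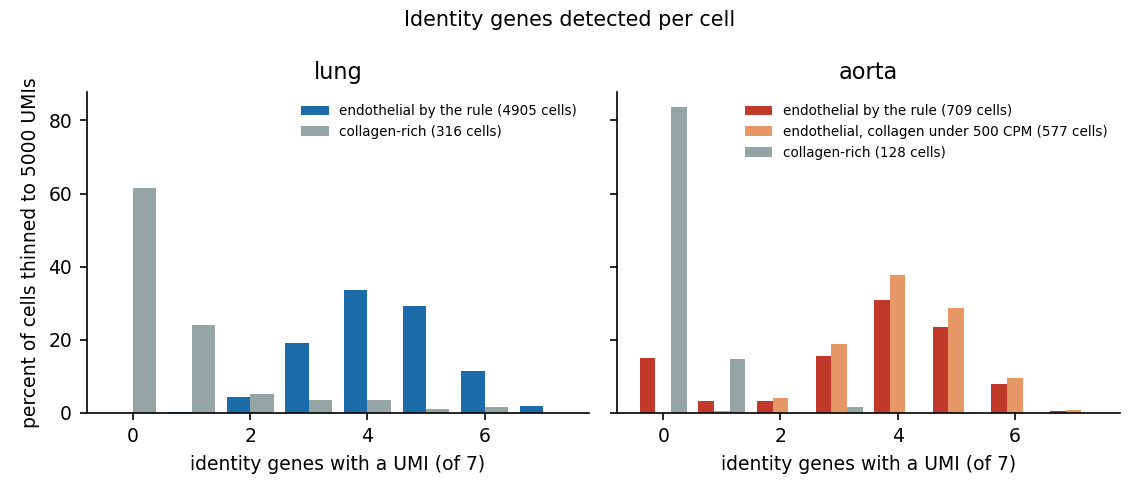
Share of cells (percent, each cell thinned to 5000 UMIs) by the number of the 7 genes with a UMI, in the lung and aorta libraries. Endothelial cells peak at 4 genes in both, and collagen-rich cells at 0, which in the aorta also gives the second peak of the 709 cells.

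Of the 7, EMCN was spread least evenly over cells for its level. Had each cell carried the mean level of its group, EMCN would have had a UMI in 92.5% of the 577 aorta cells and in 46.8% of the 5304 lung cells, against the 66.4% and 40.7% found. For ROBO4, which is near it in level, the same sum gave 95.3% and 51.8%, against 91.5% and 49.6%. In the thinned cells the Fano factor (variance over mean, 1 for pure counting) of EMCN was 1.496 in the 577 aorta cells and 1.31 in the lung. The median over genes of like mean (within 1.25-fold) was 1.04 over 1125 genes and 1.03 over 914 genes, and EMCN was above 98.8% and 97.2% of them. ROBO4 had 1.01 and 1.09, CDH5 1.09 and 1.05, ESAM 1.19 and 1.04, ECSCR 1.17 and 1.11, EGFL7 1.30 and 1.33, and PECAM1 1.57 and 1.39. The Fano factor rises with level, so that of PECAM1 is above that of EMCN while 58.1% and 65.2% of genes of like mean are below it. The other members were above 27.7 to 76.5% of genes of like mean in the aorta and above 32.9 to 89.2% in the lung.

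**Figure D4:**
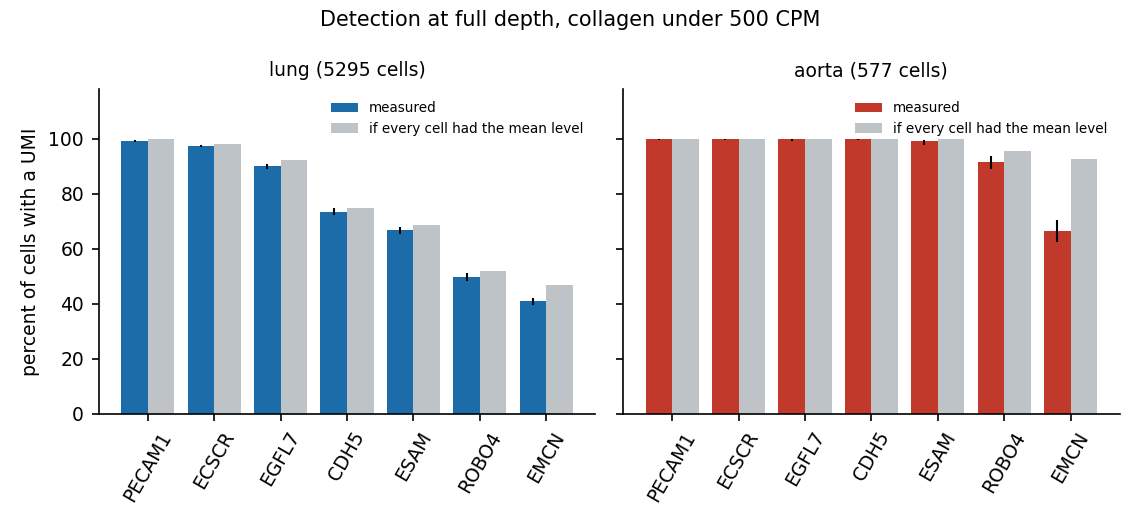
Percent of endothelial cells with under 500 CPM of collagen that had a UMI of each gene at full depth (coloured bars, 95% Clopper-Pearson intervals), beside the percent that counting alone would give if each cell had the mean level of its group (grey). The gap is widest for EMCN, at 66.4% against 92.5% in the aorta and 40.8% against 46.9% in the lung.

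The 10% of the 577 aorta cells with the highest EMCN level, 58 cells, carried 41.4% of its 1643 UMIs, while they held 10.8% of all UMIs. The same share of cells carried 25.3% of the UMIs of ROBO4, 18.5% of ESAM, 17.5% of EGFL7, 16.2% of CDH5, 14.4% of ECSCR and 13.6% of PECAM1. In the lung the corresponding 530 cells carried 43.3% for EMCN, 34.1% for ROBO4 and 14.3% for PECAM1. Cells were ranked by the level of the gene itself, so a share above 10% is built in and grows as UMIs get fewer. The share that counting alone would give was not computed, so these shares alone do not show an uneven spread. EMCN levels in single aorta cells ran from 0 at the 10th percentile to 24.1 CPM at the median, 121 CPM at the 90th percentile and 781 CPM at most. The other 6 genes differed little across this split. In the 383 cells with an EMCN UMI against the 194 without, the ratio was 0.959 for PECAM1, 1.02 for CDH5, 1.02 for ESAM, 1.05 for ECSCR, 1.06 for ROBO4 and 1.000 for EGFL7, with a median depth of 59764 against 54073 UMIs. The intervals of PECAM1 (0.940 to 0.978) and ECSCR (1.02 to 1.07) left out 1, in opposite directions, and those of the rest held it.

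The third comparison asked whether the genes vary together from cell to cell. Correlations are Pearson's r of log(1 + UMIs) across cells thinned to 5000 UMIs, given as descriptions, since cells of 1 library share their source. In the 709 aorta cells the median over the 21 pairs was 0.179, from −0.00104 for EMCN with ROBO4 to 0.645 for PECAM1 with ECSCR. Without the collagen-rich cells, over the 577, the median was 0.0126, from −0.108 for PECAM1 with ESAM to 0.109 for CDH5 with ECSCR, and 12 of 21 pairs were above 0. At this depth, the correlation seen in the 709 was thus nearly absent without the collagen-rich cells. In 4905 lung cells the median was 0.0267, from −0.00871 for CDH5 with EMCN to 0.0673 for PECAM1 with ROBO4, with 20 of 21 pairs above 0. The median over all pairs of the other genes in 10% or more of cells was 0.0002 in both aorta groups and 0.0005 in the lung. The 95th percentile over those pairs was 0.0286 in the lung, which 10 of the 21 pairs passed, 0.0765 in the 577, which 2 passed, and 0.0737 in the 709, which 20 passed. The values in the lung and in the 577 are weak in sparse counts and are given as a description only.

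**Figure D5:**
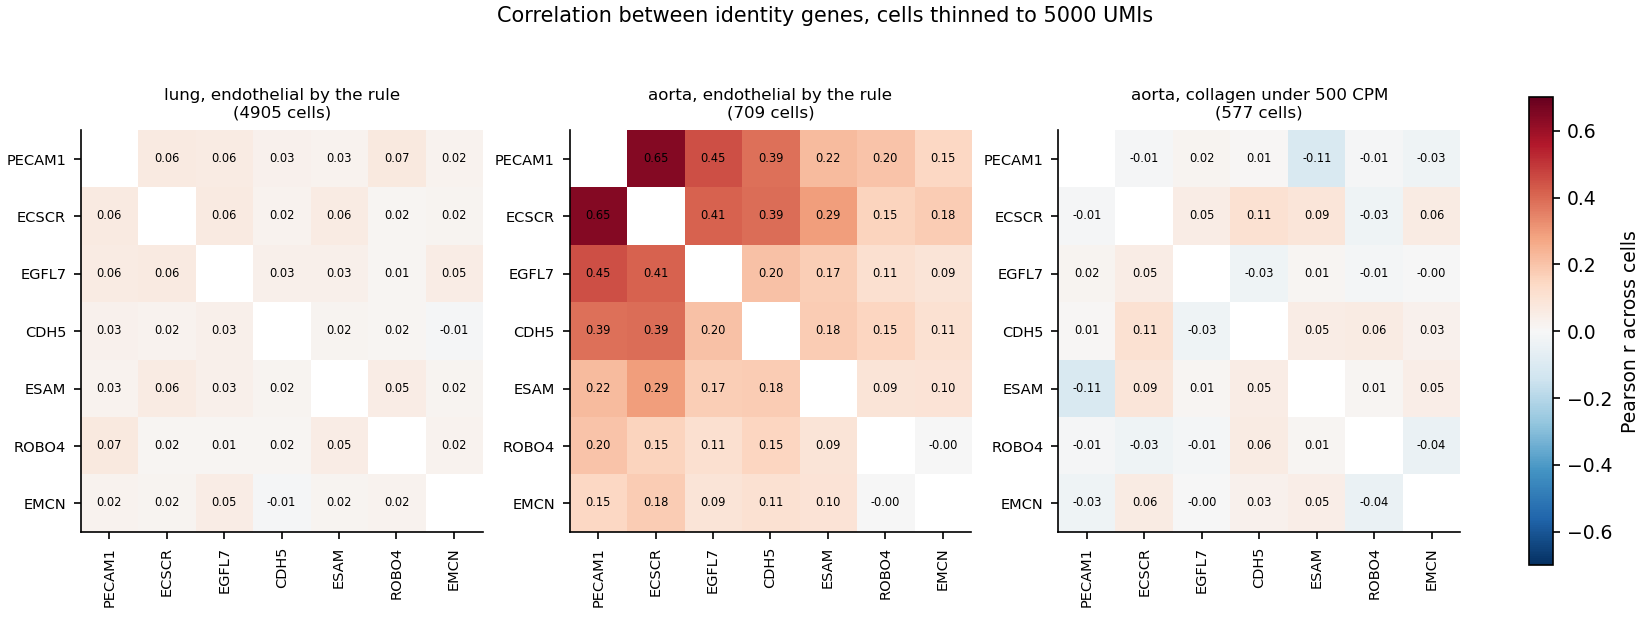
Pearson's r between each pair of the 7 genes across cells thinned to 5000 UMIs (colour scale, r printed in each field), for lung cells, the 709 aorta cells and the 577 aorta cells with little collagen. Pairs reach 0.645 in the 709 cells and stay between −0.108 and 0.109 in the 577.

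Thinning discards most of the depth of the aorta cells. Unthinned and scaled to 10000 UMIs, the median over pairs in the 577 was 0.120, from −0.0873 to 0.195, with 19 of 21 pairs above 0, and it was 0.0461 in the lung with 21 of 21 above 0. The 15 aorta pairs without EMCN had a median of 0.149 and its 6 pairs one of 0.0832. Scaled values share the total of their cell, so these are not free of depth.

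Genes most like the 7 were ranked by r with the mean of their standardized values, among 5527 genes in the 709 aorta cells. They were VCAM1 (0.751), an adhesion molecule for leukocytes, FAM213A (0.629), TXNDC5 (0.621), CTGF (0.616) and IL6ST (0.594), the shared receptor chain of the IL-6 family. The most opposite were COL1A1 (−0.792) and COL1A2 (−0.789), which follows from the makeup of the 709. In the 577 they were GJA5 (0.194), a gap junction protein of arterial ECs, SCARF1 (0.175), PLGRKT (0.169), PTGIS (0.159), the enzyme that makes prostacyclin, and FUCA1 (0.155). In the lung they were TM4SF1 (0.152), a surface protein of ECs, GNG11 (0.146), S100A6 (0.137), PRSS23 (0.125) and VIM (0.119). The values in the 577 and in the lung are the highest among 5482 and 5225 genes. How high the highest would be from counting alone was not computed. TOP2A, which untangles DNA in dividing cells, was among the most opposite in the 577 (−0.180) and was the most opposite in the lung (−0.167). Of the first 50 in the 709 and in the lung, 16 were shared, the same share of each list. They were TM4SF1, GNG11, PRSS23, GJA5, THBS1, PTGIS, ENSSSCG00000001229, VCAM1, LAPTM5, RDX, APOA1, FAM213A, CAV1, SELP, TXNDC5 and ENSSSCG00000006581. With the 577, 11 of 50 were shared: TM4SF1, PRSS23, VIM, IGFBP7, GJA5, THBS1, PTGIS, VCAM1, APOA1, CAV1 and SELP.

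Levels were therefore set out by cell cycle phase, scored on thinned cells from 41 S phase and 51 G2M phase genes, in cells with under 500 CPM of collagen. The aorta had 275 G1, 142 S and 160 G2M cells, and the lung 1669, 1289 and 1947, with 390 shallower cells left out. A bound of 1.25-fold was chosen for this comparison after the values were seen. In G2M against G1, ROBO4 was lower in both libraries, with a ratio of 0.714 in the aorta (0.640 to 0.797) and 0.752 in the lung (0.699 to 0.809). EMCN had a ratio of 0.876 in the aorta (0.776 to 0.988) and 0.717 in the lung (0.661 to 0.777). ECSCR had 0.889 and 0.876, PECAM1 0.943 and 0.936, CDH5 0.891 and 0.909, and ESAM 0.945 and 0.894. EGFL7 was level, at 0.991 (0.948 to 1.04) and 1.01 (0.971 to 1.04). Past 1.25-fold lower were 1 of 7 in the aorta, against 16.4% of 6117 genes, and 2 of 7 in the lung, against 9.37% of 5733. The median ratio over the 7 was 0.891 and 0.894, against 1.05 and 1.03 over all genes tested.

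In S against G1, ROBO4 had a ratio of 0.734 in the aorta (0.655 to 0.821) and 0.817 in the lung (0.754 to 0.885). EGFL7, level in G2M, had 0.905 (0.864 to 0.949) and 0.842 (0.808 to 0.877). EMCN had 1.06 (0.942 to 1.19) and 0.948 (0.871 to 1.03). PECAM1 had 0.943 and 0.918, CDH5 0.926 and 0.874, ESAM 0.935 and 0.919, and ECSCR 0.959 and 0.928. The interval of ESAM in the aorta held 1. Over the 7 the median ratio was 0.935 and 0.918, against 1.04 and 1.02 over all genes tested. Past 1.25-fold lower was 1 of 7 in the aorta, against 15.6% of 6067 genes, and 0 of 7 in the lung, against 7.71% of 5658. Depth differed with phase too, with a median of 54524 UMIs in G1, 60304.5 in S and 59811.5 in G2M aorta cells.

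The genes that act beside the 7 were taken from lists of 22 junction partners and 32 other endothelial surface or secreted genes, of which 21 and 30 were measured. At 20 CPM or more in 1 library were 15 of each. Between the 709 aorta cells and the lung cells, 0 of 15 junction partners were past 2-fold, against the 4.62% of all 5956 genes. The catenins that link CDH5 to actin were near level, with ratios of 1.11 for CTNNB1, 0.858 for CTNNA1, 1.01 for CTNND1 and 0.926 for JUP, and so was PTPRB, the phosphatase that binds CDH5, at 1.00. JAM2, a junctional adhesion molecule, was just inside at 1.99 and at 2.45 in the 577. Of the 15 surface or secreted genes, 6 were past 2-fold, against the same 4.62%.

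Higher in the aorta were SLIT3, a guidance ligand, at 3.36-fold (21.0 against 6.25 CPM), PROCR, the endothelial receptor for protein C, at 3.27-fold (119 against 36.3 CPM), SELP, P-selectin, at 2.83-fold (360 against 127 CPM), NRP1, a coreceptor for VEGF, at 2.64-fold (37.2 against 14.1 CPM) and CLEC14A, a lectin of the EC surface, at 2.31-fold (202 against 87.5 CPM). Lower was CD93, a relative of CLEC14A, at 0.313 (156 against 499 CPM). In the 577, NRP1 was at 23.7 CPM and no longer past 2-fold, while ROBO1 was at 0.419 (18.4 against 43.9 CPM). The highest of these genes were ESM1 (990 CPM), a secreted proteoglycan, CD99 (526 CPM) and SELP (360 CPM) in the aorta, and ESM1 (669 CPM), CD93 (499 CPM) and CD99 (443 CPM) in the lung.

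Against collagen-rich cells the partners went both ways. In the lung, 15 of 31 were past 2-fold higher in endothelial cells and 5 lower, against 9.69% and 6.64% of all genes, and in the aorta 18 of 33 were higher and 5 lower, against 12.6% and 7.66%. CD93 (9.40-fold in the lung), SELP (8.94-fold), TIE1 (7.50-fold) and S1PR1 (7.44-fold) lay in the range of the 7 there. NRP1 (0.173), NRP2 (0.198), UNC5B (0.266), the partner of ROBO4, and FLT1 (0.453) were lower in the lung endothelial cells, and CDH2 (N-cadherin) fell to 4 UMIs in all of them, against 30.8 CPM in the collagen-rich cells. ESM1 and CD99 were high in both kinds of cell, at 318 and 658 CPM in the collagen-rich lung cells.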

How the data were processed

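Single-cell libraries of cultured pig aorta and lung ECs, 1 each, were used. The authors deposited whole-number UMI counts per gene and cell, made with Cell Ranger 3.0.2 on Sscrofa11.1, and these counts were not normalized. Of the 22804 features, 7821 were given only by an identifier. UMIs were summed over the cells of a group and divided by their total and scaled to 1e+06 to give CPM. Poisson intervals of CPM, Clopper-Pearson intervals of shares and conditional intervals of ratios are exact, at 95%, and cover counting error only. A count of 0 allows 0.0691 CPM in the 709 aorta cells and 0.0579 CPM in the lung cells (3 counts). Ratios were compared with all genes at 20 CPM or more in 1 group. For detection, correlation and phase, cells were thinned once to 5000 UMIs with a fixed seed. Phases were scored with scanpy 1.11.5, and the scripts ran on Python 3.11.15 with numpy 2.4.6, pandas 2.3.3 and scipy 1.17.1. The computation was tested on simulated data. No cell was removed as a doublet.

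No difference was tested, since each tissue had 1 library. The genes and lists were chosen with earlier results of these data known. Named beside the 7 were the partner genes past 2-fold between libraries, the 3 highest in each library, and the 5 genes most like the 7 together with those shared among the first 50. Opposite genes, the other partners given with values and the phase and mitochondrial splits were chosen after the values were seen. Alternatives changed the scaling, the limits on cells, the fold, the thinning and the correlation. Sequences and places are from RefSeq on Sscrofa11.1. The window before the start of 1 of the 7 genes is not reported here.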

Additional observations from a re-analysis of the deposited data

How the results depend on the processing

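With 1 library per tissue, no replicate could be left out. No paired analysis was possible because each group held 1 library. Of 77 ratios of the 7 genes under 11 alternatives, from 0.422 to 1.24, 46 moved by less than their counting interval, 28 moved further and 3 changed direction. With the aorta cells under 500 CPM of collagen, the median ratio was 0.983, and ESAM (1.07) and ECSCR (1.14) turned higher in the aorta. With G1 cells alone the median was 0.922 and ECSCR was at 1.05. Of the 290 G1 cells among the 709, 275 had under 500 CPM of collagen. The G1 alternatives therefore also leave out most collagen-rich aorta cells, and phase and collagen cannot be told apart in them. With the median-of-ratios scaling the median was 0.766. With aorta cells inside the gene limit of the methods and 2 or fewer collagen UMIs, the median was 0.668 and 1 gene, EMCN at 0.422, was past 2-fold. At a fold of 1.5, 3 of the 7 and 11 of 30 partners were past it. With no level minimum, 17 of 48 partners were past 2-fold. Against collagen-rich lung cells, 1 of 7 was past 10-fold, whereas all 7 were past it in the aorta. The share of all genes was not computed at 1.5-fold, at 10-fold, without the level minimum or inside the gene limit. Whether these counts differ from that share is therefore not known. The median correlation of the 709 aorta cells was 0.576 unthinned, 0.0709 in G1 cells and 0.0126 with under 500 CPM of collagen. With under 500 CPM of collagen and unthinned it was 0.120, an alternative added after the values were seen. The lung median stayed between 0.0172 and 0.0461. The median number of genes found per cell was 3 in both libraries at 3000 UMIs, and unthinned it was 5 in the lung and 6 in the aorta. The cause of these shifts was not tested. Depth limits EMCN and ROBO4 most, which had a median of 0 UMIs per lung cell.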
